A study of Rattus norvegicus with 56 samples.

Results

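The comparison covered here set all amniotic fluid of rat fetuses exposed to dimethadione (DMO) against control amniotic fluid, whatever the state of the ventricular septum. Members were taken by sample label: 14 DMO samples, made up of 7 from fetuses with a ventricular septal defect (VSD) and 7 from exposed fetuses with an intact septum (non-VSD), and 7 negative control (NC) samples, together 21 of the 56 samples of the series. All came from Sprague-Dawley dams at embryonic day 19. The dams of both DMO groups had received DMO by repeated oral gavage, the NC dams distilled water, and each sample was the supernatant of the centrifuged fluid. The labels do not tie a fetus to its dam, so fetuses of a litter cannot be recognised and the p-values below measure the spread between these samples only. DMO is the active metabolite of the anticonvulsant trimethadione, a known heart teratogen, and it is the only treatment that separates the 14 samples from the 7. The VSD fetuses had been kept only where the great vessels were normal, and fetuses with other visible malformations had been left out, which limits the DMO samples to fetuses without such malformations.

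MicroRNAs are short RNAs cut from hairpin transcripts that guide Argonaute proteins to messenger RNAs, mainly through the seed, the bases 2 to 8 from the 5′ end. Amniotic fluid late in gestation is fed by fetal urine, lung fluid and shedding skin and mucosa, and its supernatant holds microRNAs in vesicles and protein complexes. Blood cells, muscle and liver each have microRNAs that few other cell types make at a high level, so the fluid can be read for the tissues that release RNA into it. MicroRNAs cut from a shared transcript can move together, and microRNAs with a shared seed have overlapping sets of targets.

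The sequences below are those the results turn on: the strongest shifts by p, their partners with the same seed, and the blood cell microRNAs. Capitals mark the seed. They were taken from RefSeq (assembly GRCr8), where 481 of the 523 microRNAs listed in amniotic fluid had a mature entry, and 34 of the 40 at an unadjusted p under 0.05.
miR-292-5p: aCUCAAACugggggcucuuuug
miR-293-5p: aCUCAAACugugugacacuuu
miR-27b-3p: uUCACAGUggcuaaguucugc
miR-27a-3p: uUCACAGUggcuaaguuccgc
miR-199a-3p: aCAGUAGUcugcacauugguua
miR-196c-5p: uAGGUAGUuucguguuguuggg
miR-10a-5p: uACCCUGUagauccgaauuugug
miR-103-3p: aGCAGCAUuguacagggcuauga
miR-107-3p: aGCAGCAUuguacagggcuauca
miR-144-3p: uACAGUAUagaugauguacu
miR-451-5p: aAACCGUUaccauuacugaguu
miR-142-3p: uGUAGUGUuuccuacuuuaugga
miR-185-5p: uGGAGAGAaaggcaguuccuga
In this assembly miR-292-5p lies at chr1:74879518-74879539 on the minus strand, within the span of the gene Nlrp12, and miR-27b-3p at chr17:1819163-1819183 on the minus strand, within Aopep. The sequence of miR-199a-3p was read at Mir199a2, chr13:77116294-77116315 on the plus strand, within Dnm3. That of miR-196c-5p lies at chr10:81727561-81727582 and that of miR-10a-5p at chr10:81779730-81779752, both on the plus strand and outside the span of any annotated protein-coding gene. miR-144-3p, at chr10:63459446-63459465, and miR-451-5p, at chr10:63459585-63459606, come from hairpins 89 bases apart on the plus strand. miR-27b-3p and miR-27a-3p differ at 1 of 21 positions, and miR-103-3p and miR-107-3p at 1 of 23, so reads could be split between the members of each pair and their separate values are less certain. miR-486, miR-320-3p and miR-423-3p, which also appear below, are given by name.

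Total counts were 79234 to 248295 in the NC samples (median 141904), 78188 to 331787 in the non-VSD samples (159557) and 81386 to 243598 in the VSD samples (155171). The log2 total differed by 0.143 between DMO and NC, less than the spread between samples (exact two-sided permutation test over 116280 groupings, p = 0.622). DMO samples held on average 295.5 microRNAs with at least 1 count and NC samples 327 (difference -31.6, p = 0.109 by the same exact permutation test). Levels below are CPM, counts scaled to a total of 1e6 in each sample after TMM scaling, which corrects for library composition. At these depths 3 counts were worth 9.04 to 38.4 CPM, and lower levels could not be told from 0.

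The 14 DMO samples differed from the 7 NC samples mostly in moderate shifts. Of 273 microRNAs tested with edgeR's quasi-likelihood test, 0 (0%) passed an adjusted p of 0.05, and 40 (14.7%) had an unadjusted p under 0.05, of which 20 were higher (7.33%) and 20 lower (7.33%) in DMO. By limma on log2(CPM + 1), 2 microRNAs passed the adjusted threshold, miR-292-5p and miR-27b-3p, and by DESeq2 14 (5.13%) passed, with adjusted p values from 0.000911 to 0.0385. The 14 were miR-292-5p, miR-486, miR-451-5p, miR-144-3p, miR-142-3p, miR-185-5p, miR-484, miR-103-3p, miR-107-3p, miR-320-3p and miR-370-3p, higher in DMO, and miR-27b-3p, miR-199a-3p and miR-196c-5p, lower. In edgeR the adjusted p reached 0.0570 for miR-292-5p and miR-27b-3p. At the study's own threshold for a DE-microRNA, an unadjusted p under 0.05 with a fold of at least 2 or at most 0.5, there were 20 (7.33%), 13 higher (4.76%) and 7 lower (2.56%). This split depended on the scaling and on the test. It was 17 higher and 3 lower with DESeq2's size factors in edgeR. These move the median change of all microRNAs up by 0.142 on the log2 scale. With library size only the split stayed at 13 higher and 7 lower. limma, run on values with the same TMM scaling, gave 6 higher and 16 lower and moved the median by -0.256. For 0 of 273 microRNAs did all DMO samples lie above, or all below, all NC samples. In what follows higher and lower describe fitted values, and no single microRNA passed the adjusted threshold in edgeR's test of the pooled groups.

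**Figure D1:**
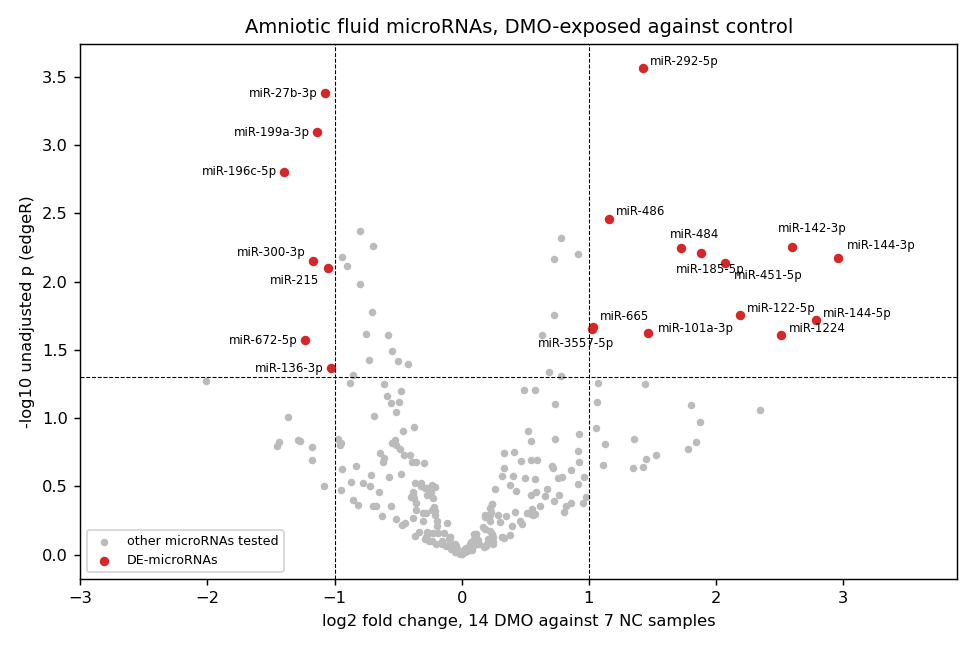
Log2 fold change of the 14 DMO against the 7 NC amniotic fluid samples (x axis) and -log10 of the unadjusted p of edgeR's test (y axis) for the 273 microRNAs tested. Red points are the 20 DE-microRNAs, 13 on the right and 7 on the left, and dashed lines mark the DE-microRNA threshold.

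The microRNA with the lowest p was miR-292-5p, from the miR-290 to miR-295 cluster, which is best known from pluripotent cells and the placenta. It stood at 234, 342 and 686 CPM in NC (lowest, median and highest), at 592, 883 and 1649 CPM in non-VSD and at 540, 879 and 2391 CPM in VSD. All 14 DMO samples lay above the NC median, and only the highest NC sample reached into the DMO range. The log2 fold change was 1.42 ± 0.34 (SE, adjusted p = 0.0570), that is 2.68-fold. By DESeq2 its adjusted p was 0.000911, and by limma 0.0347. miR-293-5p, with the same seed, had a log2 fold change of 0.46 ± 0.79 (adjusted p = 0.817), and the other 6 listed products of the cluster had too few counts to be tested.

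Among the 40 microRNAs, 3 had all 14 DMO samples above the NC median and 6 had all 14 below it, and over all 273 tested the numbers were also 3 and 6. The other members above were miR-320-3p and miR-423-3p. miR-320-3p, which is made without the nuclear enzyme Drosha, ran from 4800 to 7442 CPM in NC, from 6526 to 18938 CPM in non-VSD and from 6201 to 11197 CPM in VSD. miR-423-3p had medians of 1485 CPM in NC, 3279 CPM in non-VSD and 2006 CPM in VSD. Their log2 fold changes were 0.72 ± 0.25 and 0.64 ± 0.27 (adjusted p = 0.114 and 0.218). Both changes were under 2-fold.

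The 6 members below were miR-27b-3p, miR-199a-3p, miR-196c-5p, miR-10a-5p, miR-30a-3p and miR-672-5p. miR-27b-3p, from the miR-23b hairpin cluster and known from vessel growth and lipid metabolism, stood at 4206, 6279 and 8669 CPM in NC, 966, 1875 and 3134 CPM in non-VSD and 2671, 3014 and 6079 CPM in VSD. The non-VSD samples and 6 of the 7 VSD samples lay below every NC sample, and VSD replicate 2 lay within the NC range (log2 fold change -1.08 ± 0.27, adjusted p = 0.0570). miR-199a-3p, a microRNA of mesenchymal cells and the sixth most abundant in the fluid with 3.59% of counts, had 17921, 65224 and 82824 CPM in NC, 9579, 28729 and 42655 CPM in non-VSD and 11392, 21713 and 34198 CPM in VSD. Its log2 fold change was -1.13 ± 0.30 (adjusted p = 0.0734). The lower NC samples overlapped the DMO samples.

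miR-196c-5p and miR-10a-5p are encoded in the Hox gene clusters, whose genes pattern the body axis. miR-196c-5p had 255, 818 and 1328 CPM in NC, 55.6, 187 and 366 CPM in non-VSD and 153, 376 and 442 CPM in VSD (log2 fold change -1.40 ± 0.40, adjusted p = 0.107). miR-10a-5p had 8610, 11719 and 13603 CPM in NC, 3728, 5181 and 10069 CPM in non-VSD and 4529, 6365 and 9962 CPM in VSD (-0.70 ± 0.23, adjusted p = 0.114). Both groups of DMO samples overlapped the low end of NC. All 6 tested microRNAs of the miR-10 and miR-196 list had negative values, with a median of -0.42 beside 0.03 over all 273 microRNAs, and 2 of the 6 were lower at an unadjusted p under 0.05, beside 20 of 273 (7.33%) over all. miR-196a-5p and miR-196b-5p, which share the seed of miR-196c-5p, had -0.36 ± 0.44 and -0.19 ± 0.48. Each differs from miR-196c-5p at 1 position, so reads could be split among them and their separate values are less certain.

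miR-30a-3p had medians of 835 CPM in NC, 310 CPM in non-VSD and 575 CPM in VSD, and miR-672-5p of 802, 191 and 484 CPM. Their log2 fold changes were -0.94 ± 0.32 and -1.23 ± 0.53 (adjusted p = 0.114 and 0.229). In both, the VSD median lay between those of non-VSD and NC. Of 8 tested miR-30 members, 2 were lower at an unadjusted p under 0.05 (miR-30a-3p and miR-30d-5p) and 0 were higher, beside 7.33% in each direction over all 273, and the median was -0.73 beside 0.03.

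**Figure D2:**
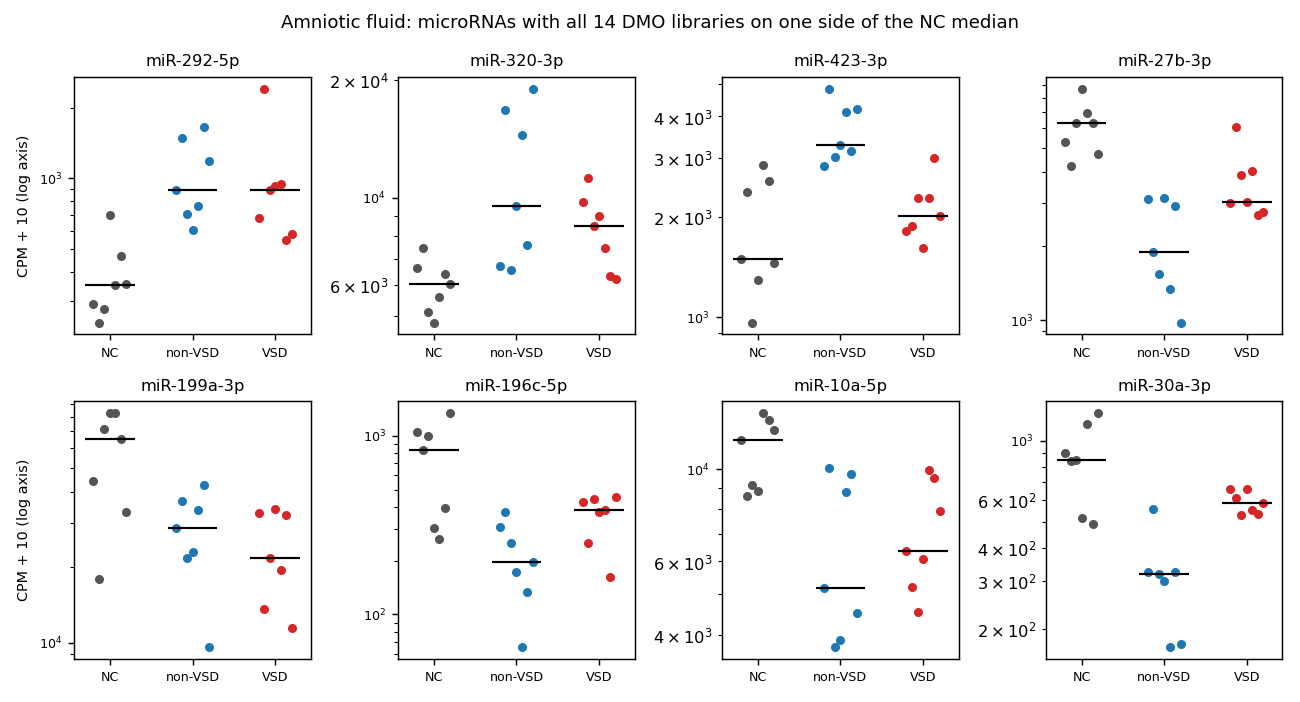
CPM plus 10 on a log axis, a point per sample (7 NC, 7 non-VSD, 7 VSD), for 8 of the 9 microRNAs with all 14 DMO samples on the same side of the NC median; the horizontal bars are group medians. The first 3 panels sit above NC and the other 5 below it, with overlap between single samples in each.

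Among the DE-microRNAs the largest fold changes were those of miR-144-3p, miR-144-5p and miR-142-3p, which blood cells make, and they came from part of the DMO samples. The red blood cell list (miR-144-3p, miR-144-5p, miR-451-5p and miR-486, which are made at a very high level in the erythroid lineage) had all 4 tested members higher at the DE-microRNA threshold, which 13 of all 273 (4.76%) met in that direction, with a median of 2.43 beside 0.03 over all; miR-451-3p had too few counts. The members of the list add up to 15044 to 34791 CPM in NC (median 22274), 25425 to 86089 CPM in non-VSD (63627) and 18119 to 143511 CPM in VSD (40436). Most of these sums was miR-486, with medians of 21171, 55848 and 39252 CPM, which muscle makes too. Of the white blood cell list, 1 of 4 tested members met the DE-microRNA threshold, miR-142-3p, and the median was 1.51, with values from 0.06 to 2.60. By edgeR all 4 tested values were positive. On another measure, the difference of mean log2 CPM (DMO minus NC), miR-150-5p had -0.17, miR-223-3p 0.36 and miR-142-5p 1.04. The sign for miR-150-5p thus depended on the measure.

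miR-144-3p stood at 0, 99.5 and 371 CPM in NC, 0, 596 and 2457 CPM in non-VSD and 12.0, 227 and 2271 CPM in VSD. Its hairpin neighbour miR-451-5p, which matures through Argonaute 2 without Dicer, stood at 37.8, 520 and 1065 CPM in NC, 531, 2142 and 6433 CPM in non-VSD and 239, 462 and 7064 CPM in VSD. The VSD median of miR-451-5p was below that of NC, while the highest VSD samples were far above. The log2 fold changes were 2.96 ± 1.01 for miR-144-3p and 2.07 ± 0.71 for miR-451-5p (both adjusted p = 0.114). miR-144-5p, the other arm of the hairpin, was at 0 in 3 NC and 2 VSD samples and had 2.79 ± 1.12. miR-486, which red cells and muscle both make, was abundant throughout: 14926, 21171 and 34102 CPM in NC, 22558, 55848 and 77464 CPM in non-VSD and 17530, 39252 and 137306 CPM in VSD. It was above the NC median in 13 of 14 DMO samples (1.16 ± 0.36, adjusted p = 0.114).

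miR-142-3p, a microRNA of all blood-forming lineages, ran from 151 to 4379 CPM in NC, from 286 to 22242 CPM in non-VSD and up to 25660 CPM in VSD, with medians of 693, 5773 and 1927 CPM. miR-185-5p had medians of 397, 845 and 553 CPM in NC, non-VSD and VSD and reached 4170 and 5132 CPM in the DMO groups against 873 CPM in NC. miR-484, another Drosha-independent microRNA, had medians of 112, 428 and 204 CPM. Their log2 fold changes were 2.60 ± 0.86, 1.88 ± 0.63 and 1.72 ± 0.57, each with an adjusted p of 0.114. miR-101a-3p, known for targeting the Polycomb gene Ezh2, had 1.47 ± 0.61 (adjusted p = 0.218). In each of these 4 the DMO samples ran from within or below the NC range to well above it.

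The high values sat in 5 libraries, non-VSD replicates 1, 2 and 3 and VSD replicates 6 and 7. Their red blood cell score, the mean log2 CPM of the 4 tested red cell microRNAs, was 12.4 to 12.8, against 7.82 to 10.6 in the other 9 DMO samples and 7.07 to 10.4 in NC. These libraries were singled out after their values were seen, so no test was made on them. For 7 of the 20 microRNAs higher at an unadjusted p under 0.05, namely miR-103-3p, miR-142-3p, miR-144-3p, miR-144-5p, miR-185-5p, miR-451-5p and miR-484, these were the 5 highest samples of all 21. For miR-101a-3p and miR-486 they were 4 of the 5 highest, and for the other 11 microRNAs 2 or fewer. The score is made of miR-144-3p, miR-144-5p, miR-451-5p and miR-486, so their place in this count follows from its definition. The share over all 273 microRNAs was not taken, and the count is a description only. Outside them the DMO samples held 286 to 5773 CPM of miR-142-3p beside 151 to 4379 CPM in NC, and 239 to 2142 CPM of miR-451-5p beside 37.8 to 1065 CPM. The labels do not say whether blood entered a sample when it was drawn or lysed in it, and the part of this in the result was not tested.

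**Figure D3:**
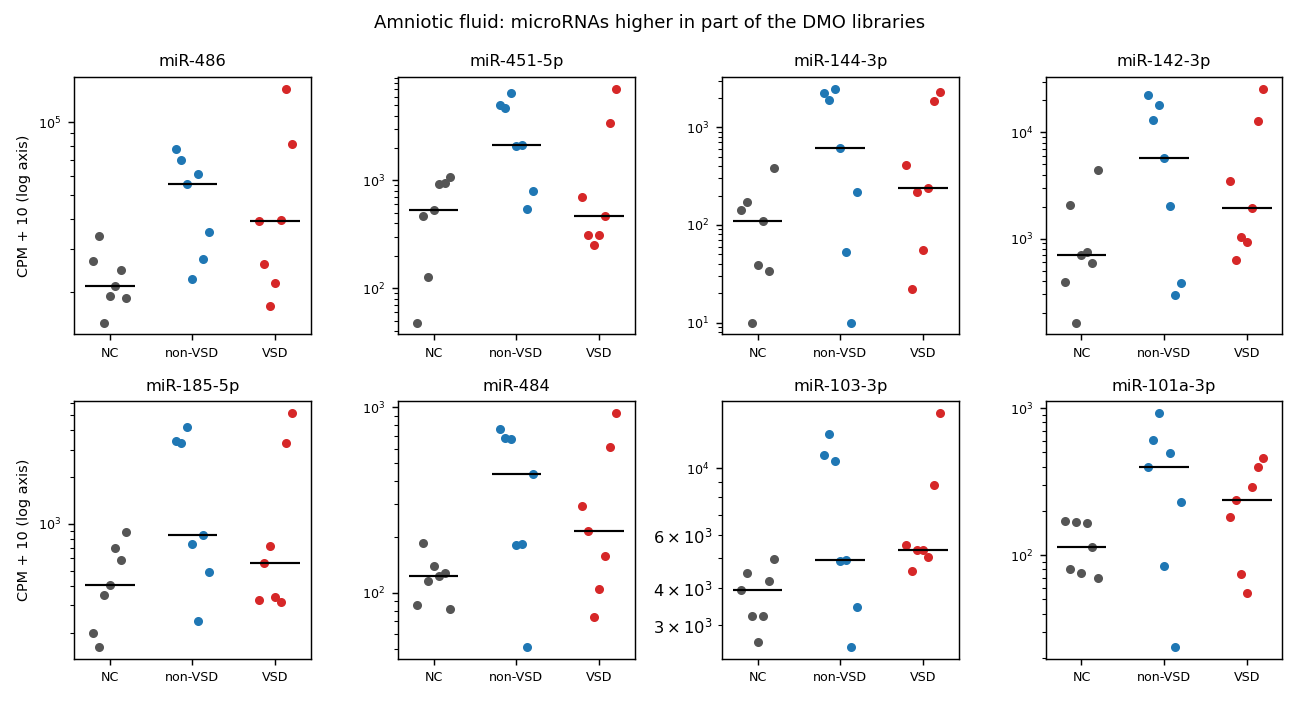
CPM plus 10 on a log axis, a point per sample (7 NC, 7 non-VSD, 7 VSD), for 8 microRNAs, bars marking group medians. In the panels other than miR-486 and miR-101a-3p, 3 non-VSD and 2 VSD samples form the top of the plot while the remaining DMO samples lie near the NC samples.

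A fit with the red blood cell score as a covariate, added after the values were seen, gave smaller values for several of these. In it miR-142-3p had a log2 fold change of 0.11 ± 0.35, miR-185-5p of 0.20 ± 0.43, miR-484 of 0.36 ± 0.52 and miR-103-3p of 0.23 ± 0.24. These 4 had their 5 highest samples in the 5 libraries of highest score, and the score is itself made of DE-microRNAs. Their smaller values therefore follow from how they were picked and are no independent result. In the same fit miR-292-5p had 1.68 ± 0.35 (adjusted p = 0.0123), miR-27b-3p had -0.83 ± 0.29 and miR-199a-3p -1.03 ± 0.36 (both adjusted p = 0.116). Of the 269 microRNAs in that fit, 4 (1.49%) passed an adjusted p of 0.05: miR-292-5p and miR-122-5p higher, and let-7a-5p and let-7f-5p lower. miR-122-5p had 2.78 ± 0.71 in it, and its value without the covariate rests on few samples, as given below. let-7a-5p and let-7f-5p, members of a family that rises as cells differentiate, had -1.45 ± 0.36 and -1.69 ± 0.38 in it. Without the covariate they had -0.38 ± 0.41 and -0.69 ± 0.40. The score is made of DE-microRNAs and was chosen after the values were seen. The 4 passes in this fit are therefore a description and no independent result.

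MicroRNAs that share a seed had values of like sign in some families and of unlike sign in others. miR-103-3p and miR-107-3p, both encoded in introns of pantothenate kinase genes, were both higher, with medians of 3906 CPM in NC against 5343 CPM in DMO and of 1277 CPM against 2510 CPM (0.92 ± 0.31 and 0.78 ± 0.26, both adjusted p = 0.114). The high miR-103-3p samples were the 5 named above, whereas miR-107-3p had only 2 of them among its 5 highest. miR-27a-3p, the partner of miR-27b-3p, was also lower, with medians of 900 CPM in NC and 325 CPM in DMO (-0.86 ± 0.41, adjusted p = 0.338). Of the 7 tested products of the miR-23, miR-27 and miR-24 clusters, 3 were lower at an unadjusted p under 0.05, miR-27b-3p, miR-27a-3p and miR-23a-3p, and 0 were higher, beside 7.33% in each direction over all microRNAs. The median of the 7 was -0.37. miR-23b-3p, cut from the hairpin 142 bases from that of miR-27b-3p, had 0.03 ± 0.24. Its sequence is close to that of miR-23a-3p, so reads could be split between them and their separate values are less certain. Of 9 tested members with the let-7 seed, let-7e-5p was lower at an unadjusted p under 0.05 (-0.80 ± 0.26), 6 others had negative values, and let-7g-5p and let-7b-5p had 0.22 ± 0.52 and 0.02 ± 0.24. Several let-7 sequences are close to each other as well, so the same limit holds for their separate values. miR-322-5p was lower (-0.80 ± 0.29), while miR-15b-5p and miR-16-5p, of the same seed, had 1.13 ± 0.77 and 0.28 ± 0.43.

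The imprinted Dlk1-Dio3 locus on chromosome 6, active from the maternal allele in embryo and placenta, gave 48 tested microRNAs, of which 2 were higher and 3 lower at an unadjusted p under 0.05, with a median of -0.22. Over all 273 the share was 7.33% in each direction, so the locus as a whole was near or below the background, and its single members are given as values. miR-300-3p had 421, 1918 and 4418 CPM in NC, 401, 883 and 2439 CPM in non-VSD and 308, 671 and 1394 CPM in VSD (-1.17 ± 0.40, adjusted p = 0.114). miR-434-3p and miR-136-3p, from hairpins 852 bases apart within the span of Rtl1, had -0.70 ± 0.27 and -1.03 ± 0.48. miR-665 and miR-370-3p, from the same locus, went the other way, with 1.03 ± 0.42 and 0.73 ± 0.29. For miR-665 the medians were 467 CPM in NC, 713 CPM in non-VSD and 603 CPM in VSD, and single VSD samples lay both below and far above NC.

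Surface epithelia were represented by abundant microRNAs. miR-203a-3p, a microRNA of the epidermis and the fourth most abundant with 4.79% of counts, ran from 48962 to 75306 CPM in NC, from 23806 to 49648 CPM in non-VSD and from 24535 to 81961 CPM in VSD. It was below the NC median in 13 of 14 DMO samples (-0.58 ± 0.24, adjusted p = 0.218). miR-205, also epidermal, had 0.07 ± 0.29. Of 10 tested epithelial microRNAs, 2 were lower at an unadjusted p under 0.05, miR-203a-3p and miR-429, and 0 were higher, beside 7.33% in each direction over all 273, and the median was -0.32. miR-215, of gut and kidney epithelium, had medians of 3017 CPM in NC, 1920 CPM in non-VSD and 1709 CPM in VSD (-1.05 ± 0.37, adjusted p = 0.114), and miR-192-5p, with the same seed, had -0.32 ± 0.31. Of the mesenchymal list 1 of 5 tested members was lower at an unadjusted p under 0.05, miR-199a-3p, and miR-143-3p had 0.13 ± 0.45.

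miR-122-5p, made almost only by hepatocytes, met the DE-microRNA threshold through few samples. Its medians were alike, 967 CPM in NC, 969 CPM in non-VSD and 889 CPM in VSD, but VSD replicate 4 held 40719 CPM and VSD replicate 3 held 8261 CPM. The log2 fold change of 2.19 ± 0.87 (adjusted p = 0.210) was 0.87 without VSD replicate 4. Muscle microRNAs were high in the same library: miR-206-3p, of skeletal muscle, stood at 273291 CPM there, miR-1-3p, of heart and skeletal muscle, at 5653 CPM and its relative miR-1b at 2310 CPM. VSD replicate 1 also held much miR-206-3p, 162243 CPM, but only 644 CPM of miR-122-5p. Over the groups, miR-206-3p ran from 270 to 60159 CPM in NC, from 110 to 24850 CPM in non-VSD and from 372 to 273291 CPM in VSD. Of 5 tested muscle microRNAs, 0 were at an unadjusted p under 0.05 although all 5 values were positive (median 1.06): miR-1-3p had 1.53 ± 1.13 and miR-206-3p 1.35 ± 1.10. Without VSD replicate 4 these were 0.46 and 0.63, and without NC replicate 5 they were 2.88 and 2.16.

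The remaining DE-microRNAs were miR-3557-5p (1.02 ± 0.42) and miR-1224 (2.52 ± 1.06, both adjusted p = 0.218). miR-1224, a mirtron spliced out of Vwa5b2, was at 0 in 4 of 7 NC samples, in 2 of 7 non-VSD samples and in 0 VSD samples, and reached 101 CPM in NC and 284 CPM in DMO. miR-483-5p, from an intron of Igf2 and the third most abundant with 5.74% of counts, had medians of 33961 CPM in NC and 50385 CPM in DMO (0.78 ± 0.38, adjusted p = 0.338). The most abundant microRNAs, miR-3473 and miR-16-5p, had 0.06 ± 0.31 and 0.28 ± 0.43. Of other microRNAs that the study text takes up for the fluid, miR-184, miR-299a-5p and miR-199a-5p had 1.36 ± 0.90, -1.44 ± 0.97 and -0.56 ± 0.70, none at an unadjusted p under 0.05. miR-1843b-5p and miR-134-3p, with 39 and 0 counts over all NC samples and 19 and 26 over all DMO samples, were too low to be tested.

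Each DMO group was then set against the same 7 NC samples in a fit with 3 groups, which shows how much of the pooled value each group carries. All 20 DE-microRNAs had the same sign in both groups, and 11 of them were at an unadjusted p under 0.05 in both. Pooling favours both counts, since the 20 were chosen on the pooled groups and both contrasts share the NC samples. The share over all 273 microRNAs was not taken, so both counts are a description. Against NC, 0 microRNAs (0%) passed an adjusted p of 0.05 in VSD, with 33 (12.1%) at an unadjusted p under 0.05. In non-VSD 11 (4.03%) passed, and 49 (17.9%) had an unadjusted p under 0.05. By direction, 3 were higher, miR-292-5p, miR-320-3p and miR-423-3p, and 8 lower, miR-27b-3p, miR-196c-5p, miR-196a-5p, let-7e-5p, miR-30a-3p, miR-30e-3p, miR-672-5p and miR-3553. miR-27b-3p had -1.52 ± 0.29 in non-VSD (adjusted p = 0.00501) and -0.74 ± 0.28 in VSD (0.343). miR-292-5p had almost the same value in both, 1.46 ± 0.38 and 1.39 ± 0.38 (adjusted p = 0.0292 and 0.186).

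The difference between the DMO groups was tested directly, and 0 microRNAs (0%) passed an adjusted p of 0.05, while 29 (10.6%) had an unadjusted p under 0.05. The adjusted p reached 0.0572 for miR-369-3p (VSD minus non-VSD -1.54) and miR-196a-5p (1.72). In miR-196a-5p the pooled value of -0.36 covered -1.46 ± 0.42 in non-VSD and 0.26 ± 0.41 in VSD. Among the 20 DE-microRNAs 4 had an unadjusted p under 0.05 for VSD against non-VSD: miR-27b-3p, miR-672-5p, miR-3557-5p and miR-122-5p. Their adjusted p values were 0.206, 0.293, 0.324 and 0.206.

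**Figure D4:**
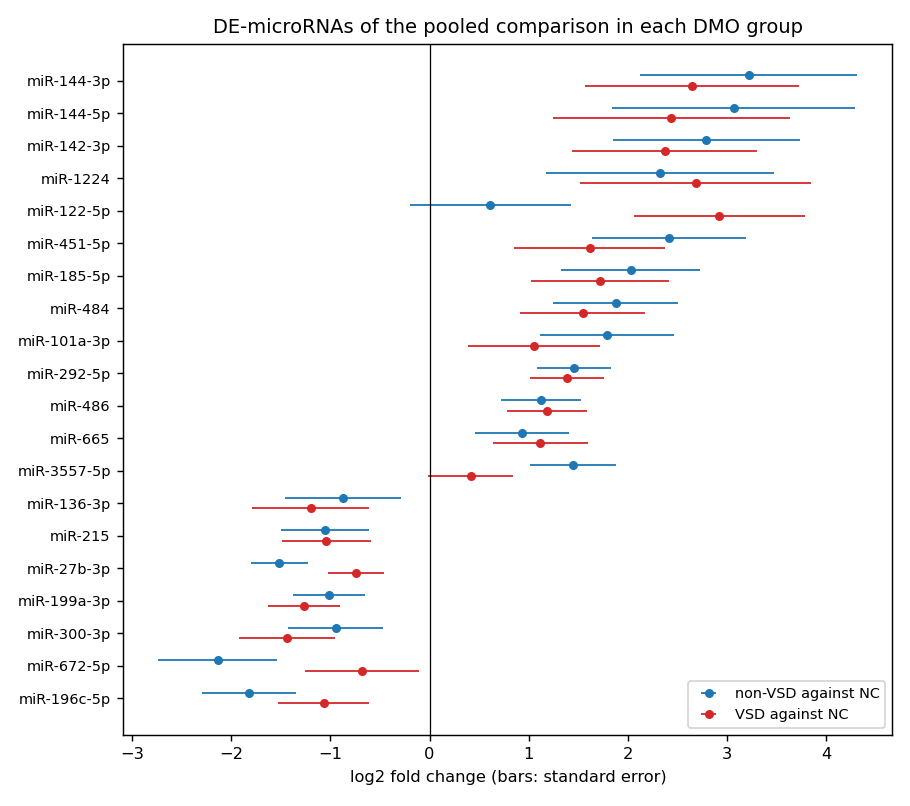
Log2 fold change of the 7 non-VSD (blue) and the 7 VSD samples (red) against the same 7 NC samples for the 20 DE-microRNAs, with bars of 1 standard error. Both groups lie on the same side of 0 in each row, and the widest gap is that of miR-122-5p.

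The same exposure was compared in fetal myocardium, from 14 DMO and 7 NC hearts in paraffin blocks. That tissue was prepared with other kits and another sequencer, so levels are not set across tissues, only changes within each. Of the 20 DE-microRNAs of the fluid, 17 were tested in myocardium, where 41 of 483 microRNAs (8.49%) passed an adjusted p of 0.05. The 17 were chosen on their values in the fluid, so the size of those values is no independent evidence.

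The red cell microRNAs were lower in DMO myocardium. miR-486 had a log2 fold change of -1.99 ± 0.50 (adjusted p = 0.0208), miR-451-5p of -1.75 ± 0.50 (0.0310), miR-144-3p of -1.82 ± 0.57 (0.0492) and miR-144-5p of -2.20 ± 0.53 (0.0163), all by edgeR over the 483 microRNAs. miR-185-5p (-1.19 ± 0.28) and miR-101a-3p (-0.83 ± 0.19, both adjusted p = 0.0157) fell too. In bulk samples, fewer red cells and less RNA per cell cannot be told apart. miR-199a-3p had 0.42 ± 0.19 in myocardium and miR-27b-3p -0.22 ± 0.16, neither past the threshold.

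The difference between the change in the fluid and that in myocardium was tested for all 261 microRNAs tested in both tissues, by a permutation test within tissues (100000 draws, two-sided) with Benjamini-Hochberg adjustment over the 261, and 11 (4.21%) passed an adjusted p of 0.05. Of the 17 DE-microRNAs 4 were among them, and since these were chosen on a large value in the fluid, that share is a description. The difference of log2 changes, fluid minus myocardium, was 2.85 for miR-486 (adjusted p = 0.0209), 4.41 for miR-144-5p and 2.35 for miR-185-5p (both 0.0334), and -1.52 for miR-199a-3p (0.0209). miR-451-5p (3.28), which missed the threshold narrowly, and miR-144-3p (3.94, adjusted p = 0.0706) did not pass. For miR-27b-3p and miR-292-5p, at -0.97 and 1.44, the adjusted p was 0.122 in both. miR-292-5p stood at a mean of 2.15 CPM in NC and 1.92 CPM in DMO myocardium. By edgeR's values 3 of the 17 had the same sign in both tissues, miR-27b-3p, miR-300-3p and miR-136-3p. The share over all 261 was not taken. Some myocardial values lay near 0, as -0.0006 for miR-665 and -0.09 for miR-122-5p, so the count is a description only.

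**Figure D5:**
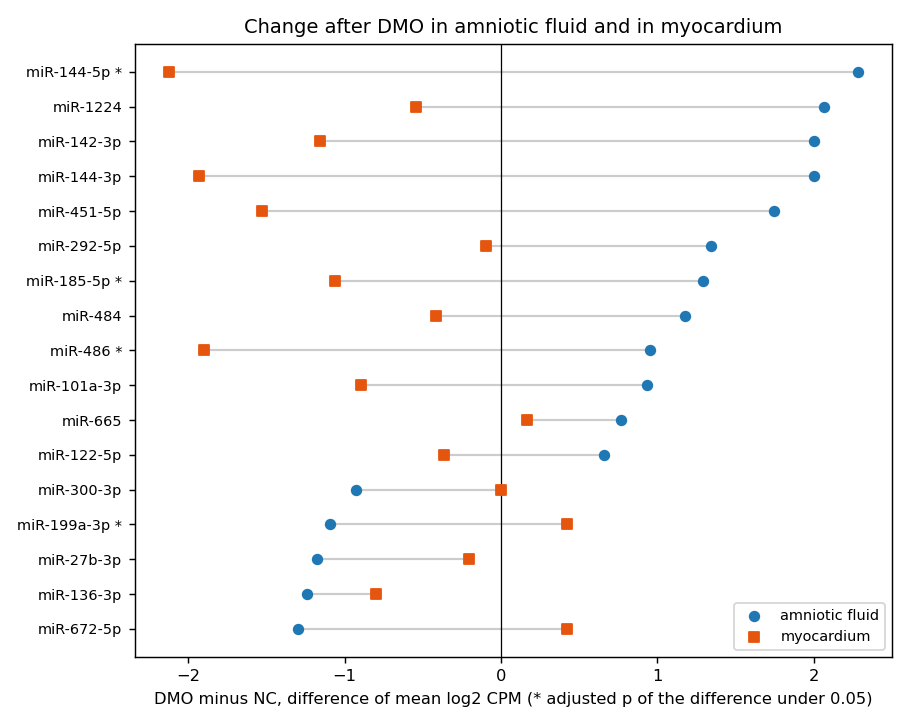
Difference of mean log2 CPM, DMO minus NC, in amniotic fluid (circles) and myocardium (squares) for the 17 DE-microRNAs of the fluid that were tested in both, 14 DMO and 7 NC samples per tissue. Asterisks mark the 4 whose changes differ at an adjusted p under 0.05 over all 261 microRNAs tested in both; the red cell microRNAs lie right of 0 in the fluid and left of 0 in myocardium.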

How the data were processed

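The authors deposited raw read counts per mature microRNA, without normalization, in separate amniotic fluid tables for VSD with NC and for non-VSD with NC; the labels and methods name bcl2fastq 2.19 and FASTX-Toolkit, QIAseq libraries and a NovaSeq sequencer. The aligner, annotation and use of molecular identifiers are not given in the sources used here, so PCR copies may be counted; the floors given in CPM cover counting error only. Tables were joined by microRNA name (493 and 507 listed, 523 in all, 477 in both), with 0 for a name in 1 table only. The NC columns were identical in both tables. The 56 columns of normalized per-sample values, the authors' fold changes and p-values, and the maternal serum were not used.

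Counts were tested in R 4.3.3 with edgeR 4.0.16 (TMM, filterByExpr with a minimum count of 10, glmQLFit and glmQLFTest) and Benjamini-Hochberg adjustment over 273 microRNAs. Alternatives used DESeq2 1.42.0, limma 3.58.1, other filters and scalings, a replicate block and each sample left out. Depth was compared by exact permutation. The difference between tissues was planned over microRNAs called in the fluid, and since none was called, it was run over all 261 microRNAs tested in both tissues. Scripts were tested on simulated data. The members and lists were chosen with earlier results of these data known. Named microRNAs are the DE-microRNAs (the rule took the 10 with the lowest p in a direction), up to 4 with the lowest p per list, the 10 most abundant, those the study text names, and 2 in each direction of VSD against non-VSD; miR-322-5p, miR-423-3p, miR-101a-3p, miR-1224, miR-3557-5p and miR-30e-3p were added after their values were seen.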

Additional observations from a re-analysis of the deposited data

Results flagged for a closer look

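In groups of 7 samples, 9 single samples lay apart from the rest of their group by Dixon's criterion on log2 CPM, out of 147 groups tested, and chance flags about 1 in 20. They were miR-292-5p in VSD replicate 2 (2391 CPM), miR-370-3p in NC replicate 1 (1381 CPM), miR-429 in NC replicate 4 (7666 CPM), miR-299a-5p in VSD replicate 1 (111 CPM) and miR-206-3p in non-VSD replicate 7 (110 CPM). The others were counts of 0 for miR-136-3p and miR-199a-5p in non-VSD replicate 7, for miR-15b-5p in VSD replicate 2 and for miR-199a-5p in VSD replicate 7.

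The change after DMO differed between amniotic fluid and myocardium for 11 of the 261 microRNAs tested in both tissues, by the permutation test given in the report with adjustment over all 261. The differences of log2 changes, fluid minus myocardium, were 1.03 for miR-423-5p, 1.24 for miR-92a-3p, 1.05 for miR-103-3p, 2.35 for miR-185-5p, 2.85 for miR-486 and 4.41 for miR-144-5p. They were -1.44 for miR-322-5p, -1.71 for miR-146a-5p, -1.52 for miR-199a-3p, -0.81 for miR-125b-5p and -0.79 for miR-125a-5p. The DE-microRNAs among them, miR-486, miR-144-5p, miR-185-5p and miR-199a-3p, had been chosen on a large change in the fluid. miR-423-5p, miR-92a-3p and miR-125a-5p are named after their values were seen.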

How the results depend on the processing

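The count at an adjusted p under 0.05, 0 in the test reported, was 1 with DESeq2's size factors in edgeR, 14 with DESeq2, 2 with limma on log2(CPM + 1), 5 without a filter, 5 among microRNAs with at least 10 counts in every sample, 2 with 3 groups in the fit, and 4 with the red blood cell score as a covariate (chosen after seeing the data). It was 0 to 2 when single samples were left out, and at least 1 for 9 of the 21. The 20 DE-microRNAs became 88 without a filter and 9 with at least 10 counts in every sample, and 17 to 25 with a sample left out. The 13 higher became 6 with limma, 49 without a filter and 8 with the covariate (12 to 18 with a sample left out). The 7 lower became 3 with DESeq2's size factors, 4 with DESeq2, 16 with limma, 39 without a filter, 0 with at least 10 counts in every sample and 10 with the covariate (4, without non-VSD replicate 1 or 7, to 9). The count of 11 whose change differs between the tissues became 18 with library size alone. The cause was not tested. Of 1438 values of single microRNAs under alternatives 1398 kept direction and side of the threshold, 38 passed it in the same direction, and 2 reversed: miR-15b-5p, with -0.40 by limma and -0.96 with the covariate.

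Replicate numbers are shared across groups, but same-numbered samples did not deviate together: the correlations of their deviations ran from -0.253 to 0.309 (median 0.006) with 4 of 21 over 0.1, and 3 of 21 samples correlated best with their own number. With the replicate block 0 microRNAs passed an adjusted p of 0.05 and 19 were DE-microRNAs. Limits are the choice of test, the scaling, the 5 libraries rich in red cell microRNAs, the depth and the unknown litters.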
